A study of Mus musculus with 74 samples.

Results

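White adipocytes of inguinal white adipose tissue (WAT) were compared at 2 times of day by the accessibility of their chromatin. The comparison took every ATAC-seq region of the WAT table, 25050 in all, and set 3 libraries of Zeitgeber time 17 (ZT17) against 3 libraries of ZT5. These 6 libraries are among 18 WAT ATAC libraries, taken at 6 times 4 h apart, and among 74 samples of the series. Both groups were mice of the strain Adiponectin-Cre:NuTRAP, in which Cre driven by the Adiponectin promoter turns on a fluorescent tag of nuclei and ribosomes in adipocytes, so the groups differ only in time by their labels. Nuclei were sorted by FACS from frozen tissue and made into libraries by the Omni-ATAC protocol. Diet, feeding schedule, sex, age and light schedule are not given in the sources used here. Under the common lighting of mouse rooms, ZT5 is in the light, when mice rest, and ZT17 in the dark, when they feed. Whether replicates came from separate animals is not stated, and p-values then measure only the spread between these libraries, which may be technical.

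ATAC-seq cuts DNA with a transposase where nucleosomes leave it open, and the cuts mark promoters and the more distant enhancers that transcription factors occupy. White adipocytes store energy as triglyceride, which they build from fatty acids taken up after lipoprotein lipase has freed them from lipoproteins, or from fatty acids made anew from glucose, and from glycerol 3-phosphate. The core clock is a loop in which BMAL1 and CLOCK activate the genes of their own repressors, the PER, CRY and REV-ERB proteins, through E-box sites.

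The promoters below are those of regions that the results turn on, with the bases of the region that lie before the start site, 5′ to 3′ on the strand of the gene. They were copied from RefSeq on GRCm38.p6, whose coordinates are those of mm10. Capitals mark any of 9 short motifs that were searched on both strands, here the GC box GGGCGG, the E-box CACGTG and the cyclic AMP response element TGACGTCA. The first 3 rose at ZT17 and the last 3 fell. Ldha was added after its values were seen. The sequences lie on mm10 at chr9:21835277-21835427 (plus strand) for Angptl8, chr19:4594171-4594318 (plus) for Pcx, chr7:46845681-46845803 (plus) for Ldha, chr12:30373376-30373445 (minus) for Sntg2, chr8:84978749-84978871 (minus) for Junb and chr14:18239209-18239356 (minus) for Nr1d2.
Angptl8: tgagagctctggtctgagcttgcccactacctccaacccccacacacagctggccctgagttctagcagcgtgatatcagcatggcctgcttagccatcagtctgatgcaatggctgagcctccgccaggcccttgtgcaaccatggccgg
Pcx: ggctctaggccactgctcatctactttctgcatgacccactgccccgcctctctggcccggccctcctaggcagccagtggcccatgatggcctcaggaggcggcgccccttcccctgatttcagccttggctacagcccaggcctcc
Ldha: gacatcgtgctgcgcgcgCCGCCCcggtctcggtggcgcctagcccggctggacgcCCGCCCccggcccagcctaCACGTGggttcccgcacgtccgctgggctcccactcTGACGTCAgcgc
Sntg2: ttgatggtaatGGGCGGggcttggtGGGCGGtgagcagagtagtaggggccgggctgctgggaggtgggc
Junb: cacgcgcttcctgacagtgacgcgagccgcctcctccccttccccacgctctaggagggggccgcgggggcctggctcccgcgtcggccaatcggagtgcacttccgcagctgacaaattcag
Nr1d2: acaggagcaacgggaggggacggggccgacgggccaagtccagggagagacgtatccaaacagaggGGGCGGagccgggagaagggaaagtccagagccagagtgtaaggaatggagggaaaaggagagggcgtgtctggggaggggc
The Angptl8, Pcx and Junb stretches hold none of the 9 motifs. The Ldha stretch holds an E-box, a cyclic AMP response element and GC boxes, and the stretches of Sntg2 and Nr1d2 hold GC boxes.

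Tags in regions numbered 2061170, 3848061 and 1875080 in the ZT5 libraries and 3612317, 1743890 and 2266828 in the ZT17 libraries, within the range of 1623006 to 5294923 over all 18. Depth overlapped between the 2 groups (exact two-sided permutation test, p = 0.9). Across regions, library levels correlated at 0.875 to 0.937 within ZT5, at 0.891 to 0.919 within ZT17 and at 0.774 to 0.909 between the groups. Of 12 adipocyte marker genes, 11 had a region within 10 kb of the start site, and none of their 29 regions was called. Their summed level was 1699 to 1768 CPM (tags scaled to a common library size) at ZT5 and 1563 to 1695 at ZT17. None of the 9 endothelial markers had a region, and 1 of 10 macrophage markers had one (Spi1, 17.5 to 19.3 CPM at ZT5 and 14.1 to 20.1 at ZT17). Of the mammary epithelial markers, all but Esr1 were without a region. The Esr1 regions within 10 kb summed to 85.2 to 123 CPM at ZT5 and 69.1 to 92.5 at ZT17. Fibroblast markers had a region at 4 of 10 genes (114 to 123 CPM at ZT5, 134 to 149 at ZT17) and lymphocyte markers at 2 of 12 (39.1 to 49.1 and 56.0 to 65.5 CPM). No region of any of these lists was called, and the part of other cells in the results was not tested.

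Some regions varied between libraries of the same time. The 7 regions with the largest falls other than the one at Alox5, which were picked after their values were seen, had a geometric mean of 36.7, 57.1 and 15.8 CPM at ZT5 and of 13.2, 5.85 and 6.25 CPM at ZT17. At ZT21, which the comparison does not use, the same regions stood at 38.4, 36.4 and 7.45 CPM, so libraries of 1 time also stood far apart. Over the 12 libraries of the other times, the levels of 729 regions (2.91%) followed this pattern with a correlation above 0.8. They included 48 of the regions called lower at ZT17 (14.0%) and none of those called higher, which leaves 294 regions called lower. None of the regions chosen by the rule for named genes passed that limit. What these regions share beyond the pattern was not tested.

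At ZT17, 1136 of 25050 regions differed from ZT5 (4.53%, edgeR quasi-likelihood test, adjusted p under 0.05). Of these, 794 were more accessible (3.17% of all tested) and 342 less accessible (1.37%). Regions called higher went from a median of 20.8 CPM at ZT5 to 36.8 CPM at ZT17, and their median log2 difference was 0.76, with a largest of 1.85. Regions called lower went from 43.6 to 25.8 CPM, with a median of -0.74 and a lowest of -2.88. At least a 2-fold difference was seen at 141 of the higher and 80 of the lower regions. The 3 libraries of each time did not overlap at 769 of the higher and 311 of the lower regions, against 5740 of all regions tested (22.9%). In these bulk libraries, a change in every nucleus and a change in the share of nuclei that are open cannot be told apart. The size of the count rested on single libraries. It was 98 without ZT5 replicate 2, 288 without ZT17 replicate 2, 349 without ZT17 replicate 3 and 500 without ZT5 replicate 1. Each of the 1136 regions kept its direction in every one of these fits. At 1080 of them the libraries did not overlap, so leaving out 1 library could hardly turn the direction, and this is no separate check.

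**Figure D1:**
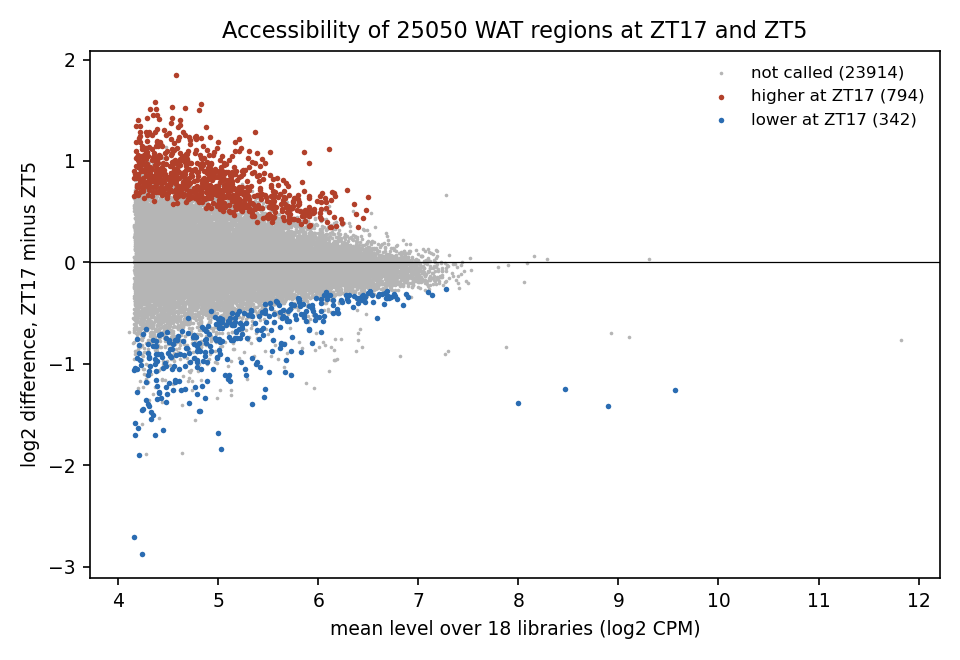
Log2 difference in accessibility (ZT17 minus ZT5, vertical axis) against the mean level over 18 libraries (log2 CPM, horizontal axis), with 1 point for each of 25050 regions. The 794 red points were called higher at ZT17 and the 342 blue points lower, and the called differences run from -2.88 to 1.85.

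Most regions that rose lay far from promoters. Of the 794 higher regions, 55 were annotated as promoters (6.93%), 369 as introns and 323 as intergenic, and 67.5% lay more than 10 kb from the nearest start site. Their median distance was 22210 bp, against 4154 bp for all regions tested, of which 9463 were promoters (37.8%). The 342 lower regions held 118 promoters (34.5%) and had a median distance of 5842 bp. By class, 4.81% of intron regions rose and 1.34% fell, and 4.98% of intergenic regions rose and 1.63% fell. Among promoters 0.581% rose and 1.25% fell. These shares moved with the scaling of the libraries. Promoter regions held 49.6%, 49.7% and 48.6% of the tags at ZT5 and 47.8%, 47.4% and 47.5% at ZT17, so that all 3 ZT17 libraries lay below all 3 ZT5 libraries. The exact two-sided permutation test gave p = 0.1, the smallest that 3 against 3 libraries allow. The other 12 libraries ran from 47.5% to 50.7%. With promoters and other regions scaled separately, an alternative chosen after seeing the data, 857 regions were called, 497 higher and 360 lower (58.0% higher against 69.9% with 1 scale). The direction among promoters then turned, from 55 higher and 118 lower to 74 higher and 38 lower. Outside promoters the counts went from 739 higher and 224 lower to 423 and 322. Whether promoters as a class lost accessibility or other regions gained it cannot be told apart from tags that sum to a fixed total.

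**Figure D2:**
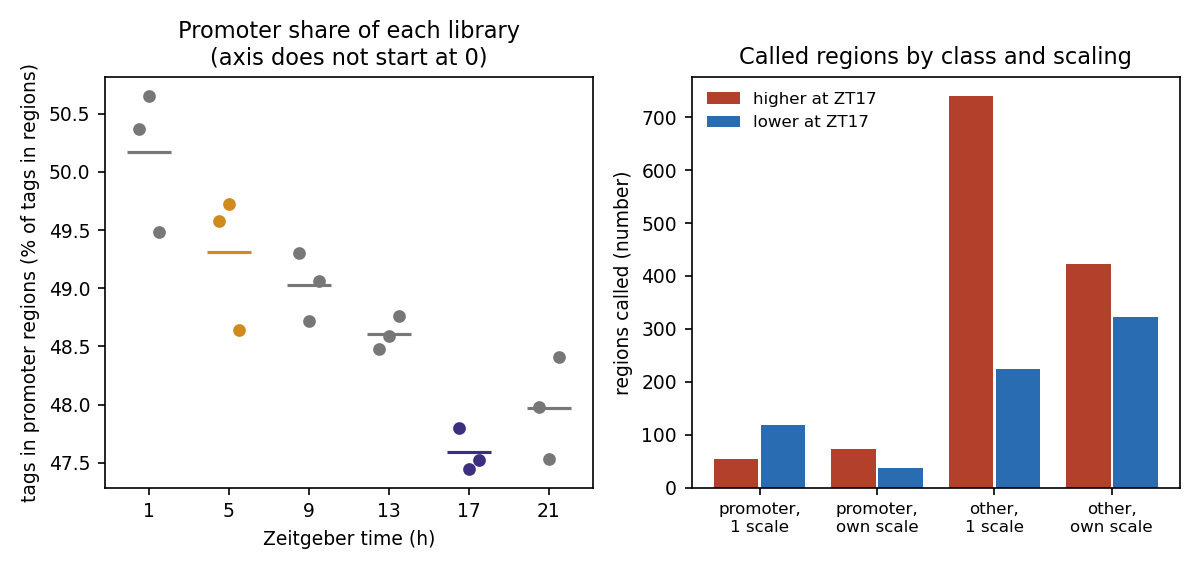
Left, the share of tags in promoter regions (percent, axis not starting at 0) for each library by Zeitgeber time, with bars at the group means: the 3 ZT17 points (dark) lie between 47.4% and 47.8%, below the 3 ZT5 points (orange). Right, the number of promoter and other regions called higher (red) or lower (blue) with 1 scale for all regions and with each class on its own scale, where promoters go from 118 lower and 55 higher to 38 lower and 74 higher.

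Among 34 regions within 10 kb of the start of 13 genes of de novo lipogenesis, 6 rose and none fell, beside 258 higher and 192 lower among all 14760 regions that near to a start (3.05% called). The median log2 difference of the 34 was 0.22, against -0.05 for all near regions. The 6 lay at 4 genes, 3 of them at Fasn, which encodes fatty acid synthase. The Fasn region 357 bp after the start, in the 5′ UTR (chr11:120824115-120824265), had 58.8, 57.2 and 65.4 CPM at ZT5 and 83.9, 103 and 113 CPM at ZT17. The groups did not overlap, and the log2 difference was 0.72 ± 0.12 (SE, edgeR adjusted p = 0.0021). A second Fasn region 6326 bp before the start (chr11:120830798-120830948) rose by 0.62 ± 0.12 on the log2 scale (edgeR adjusted p = 0.00458). The third, at the promoter, rose by 0.70 ± 0.15 (edgeR adjusted p = 0.00875).

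Pcx encodes pyruvate carboxylase, which supplies oxaloacetate for the export of citrate to the cytosol. Its promoter, printed above, had 28.2, 25.5 and 31.6 CPM at ZT5 and 42.5, 57.5 and 56.3 CPM at ZT17, which is a rise of 0.87 ± 0.18 on the log2 scale (edgeR adjusted p = 0.00701). At Thrsp, the gene of the lipogenic nuclear protein Spot 14, a region 1327 bp before the start (chr7:97418802-97418952) had 54.9, 52.2 and 69.1 CPM at ZT5 and 83.1, 91.7 and 88.4 CPM at ZT17, a rise of 0.59 ± 0.12 (edgeR adjusted p = 0.00828). The promoter of Slc25a1, the mitochondrial citrate carrier, rose least of the 6, by 0.35 ± 0.09 (edgeR adjusted p = 0.0211). Its 3 ZT5 libraries stood at 59.3, 58.0 and 59.5 CPM and its 3 ZT17 libraries at 74.0, 72.9 and 78.3 CPM. The Slc25a1 call was lost in 6 of 18 alternative fits, among them DESeq2 and the fit of the 6 libraries. No region near Acly, Acaca, Acacb, Scd1, Srebf1, Mlxipl, Acss2, Me1 or Insig1 was called, with log2 differences from -0.33 at Acaca to 0.53 at Me1.

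Triglyceride synthesis genes had 4 of 26 regions called, all higher (15.4%, beside 3.05% of all near regions). Their median log2 difference was 0.28, against -0.05 for all near regions. Gpd1 makes glycerol 3-phosphate, the backbone of triglyceride. A region 1500 bp before its start (chr15:99716018-99716168) had 26.3, 32.5 and 29.5 CPM at ZT5 and 51.9, 56.4 and 58.1 CPM at ZT17, a log2 difference of 0.89 ± 0.15 (edgeR adjusted p = 0.00239). Every ZT17 library was above every ZT5 library by a wide margin. Dgat2 catalyses the last step of the pathway, and a region 4902 bp before its start (chr7:99187540-99187690) rose from 31.6, 24.7 and 33.2 CPM to 43.3, 47.9 and 44.9 CPM (0.63 ± 0.16, edgeR adjusted p = 0.0237). Its promoter rose by 0.59 ± 0.16 (edgeR adjusted p = 0.0366). At Agpat2, which adds the second acyl chain, a region 4991 bp before the start (chr2:26609333-26609483) rose by 0.49 ± 0.13 (edgeR adjusted p = 0.0296), but its libraries overlapped, at 54.0, 46.2 and 64.8 CPM and 62.1, 90.6 and 79.2 CPM. The Agpat2 call was lost with only the 6 libraries in the fit and with promoters scaled separately. Without ZT5 replicate 2, which had the largest hold on the calls, 1 region of each of these 2 lists was called, and none fell in any fit.

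Among 19 regions at genes of lipoprotein lipase and fatty acid uptake, 4 rose and 1 fell (26.3% called, beside 3.05% of all near regions). Angptl8 encodes a secreted inhibitor of lipoprotein lipase that feeding and insulin induce. Its promoter had 40.4, 38.3 and 35.9 CPM at ZT5 and 61.8, 67.8 and 73.9 CPM at ZT17, a log2 difference of 0.82 ± 0.13 (edgeR adjusted p = 0.00177), which was called in all 18 alternative fits. A further Angptl8 region 3774 bp before the start (chr9:21831661-21831811) had 19.0, 18.4 and 23.0 CPM and then 38.1, 32.5 and 34.3 CPM (0.83 ± 0.18, edgeR adjusted p = 0.0108). The related gene Angptl4 had no called region, and its start-site region was at -0.14 ± 0.14. The other 2 rises were at Cd36, the fatty acid translocase (0.90 ± 0.25, edgeR adjusted p = 0.0376), and Lpl, the lipase itself (0.74 ± 0.21, edgeR adjusted p = 0.0466). The fall was at the promoter of Slc27a1, a fatty acid transport protein, from 76.8, 86.4 and 72.9 CPM to 67.1, 43.3 and 54.1 CPM (-0.49 ± 0.13, edgeR adjusted p = 0.0355), and it was lost with promoters scaled separately. So were the calls at Cd36 and Lpl, which left the 2 Angptl8 regions as the ones called in this list.

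**Figure D3:**
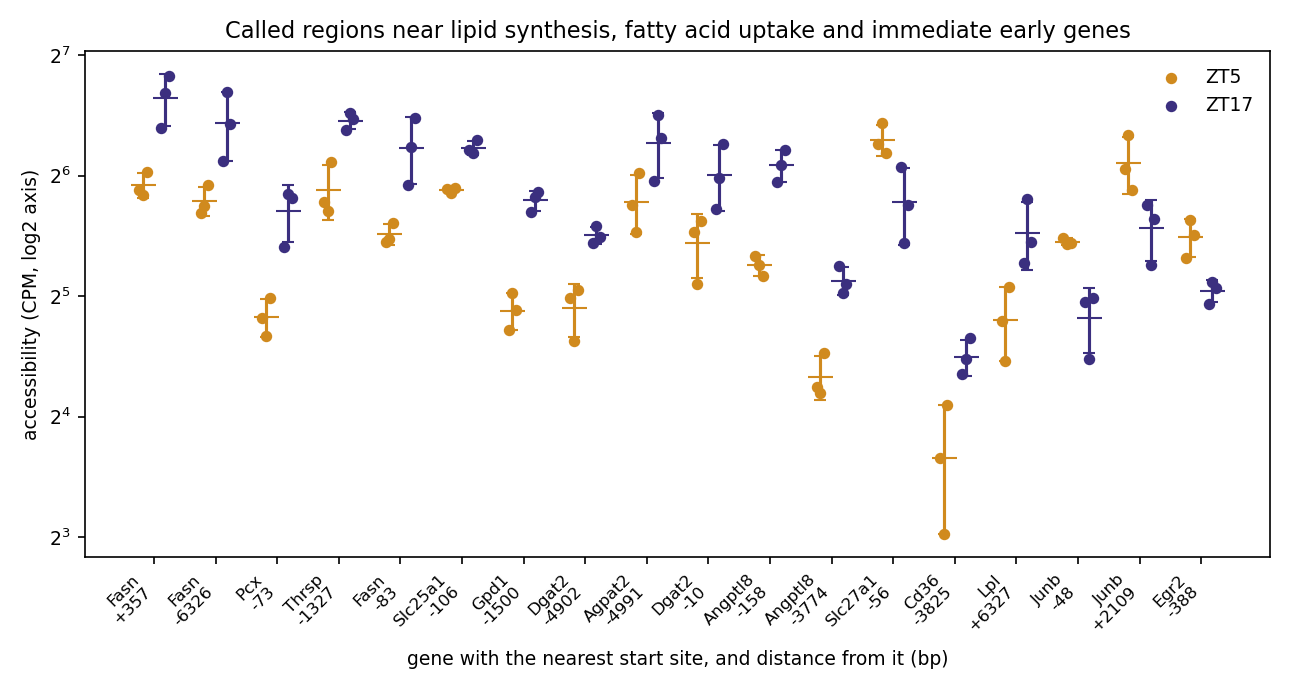
Accessibility (CPM, log2 axis) of every called region within 10 kb of a gene of lipogenesis, triglyceride synthesis, fatty acid uptake or the immediate early list, labelled by gene and distance from the start (bp). Orange points are the 3 ZT5 libraries and dark points the 3 ZT17 libraries, with bars for the mean ± SD: the Gpd1 points go from 26.3 to 32.5 CPM up to 51.9 to 58.1 CPM, and the Junb and Egr2 points go down.

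Of 32 regions at genes of lipolysis and the lipid droplet, 2 rose and none fell (6.25% called, beside 3.05% of all near regions). Plin2 encodes a coat protein of lipid droplets, and its promoter (chr4:86669981-86670131) had 37.9, 31.2 and 38 CPM at ZT5 and 45.5, 49.0 and 45.3 CPM at ZT17 (0.40 ± 0.12, edgeR adjusted p = 0.0462). A region at Cidea, another lipid droplet protein, rose by 0.69 ± 0.20 (edgeR adjusted p = 0.0477). Both calls sat close to the threshold and were lost with only the 6 libraries in the fit. The promoter of G0s2, an inhibitor of adipose triglyceride lipase, had 62.7, 53.5 and 72.3 CPM and then 82.8, 66.7 and 86.3 CPM, overlapped between the groups and was not called (0.37 ± 0.14, edgeR adjusted p = 0.124). None of the 17 regions at cholesterol synthesis genes, 16 at adipokine genes and 9 at genes of thermogenesis and the creatine cycle was called. The start-site regions of Adipoq and Lep were at -0.06 ± 0.10 and 0.23 ± 0.15. Of 15 regions at fatty acid oxidation genes, 1 rose, at Ucp3, a mitochondrial carrier (0.47 ± 0.12, edgeR adjusted p = 0.0271), and 1 fell, at the promoter of Acaa2, which cleaves the chain in beta-oxidation (-0.36 ± 0.11, edgeR adjusted p = 0.0479). That is 13.3% called. Both calls were lost in at least the fit of the 6 libraries and with promoters scaled separately. Of 35 regions at genes of the insulin and feeding response, 1 rose, 9142 bp before the insulin receptor gene Insr, from 17, 13.4 and 13.4 CPM to 19.6, 30.2 and 29.5 CPM (0.83 ± 0.21, edgeR adjusted p = 0.0241). Of 36 at adipogenic factors, 1 rose, 1302 bp after the start of Esrra, the gene of a nuclear receptor of mitochondrial genes, from 32.6, 30.2 and 37.5 CPM to 52.4, 47.3 and 56.3 CPM (0.67 ± 0.14, edgeR adjusted p = 0.00837). The shares called in the insulin and adipogenic lists, 2.86% and 2.78%, were near the 3.05% of all near regions.

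Of 46 regions within 10 kb of 20 core clock genes, 2 rose and 2 fell (8.70% called, beside 3.05% of all regions that near to a start), with a median log2 difference of 0.16. At the start sites, the region of Nr1d1 (REV-ERB alpha) had 56.9, 62.7 and 65.4 CPM at ZT5 and 50.0, 58.7 and 59.0 CPM at ZT17. That of Dbp, an output factor of the clock, had 99.7, 93.4 and 94.8 CPM and then 94.9, 87.2 and 86.7 CPM. Neither passed the test (-0.16 ± 0.10 and -0.09 ± 0.08). The Per2 region had 44.7, 54.1 and 50.9 CPM and then 64.3, 63.8 and 58.5 CPM, which did not overlap but was not called (0.31 ± 0.12, edgeR adjusted p = 0.161). Arntl, the gene of BMAL1, was at 0.18 ± 0.12 at its start site, Clock at 0.16 ± 0.13, Cry1 at 0.13 ± 0.10 and Per3 at 0.19 ± 0.12. Npas2 and Per1 had no region within 1 kb of the start. The start-site region that passed was that of Nr1d2 (REV-ERB beta), which fell from 161, 142 and 148 CPM to 124, 111 and 122 CPM (-0.32 ± 0.09, edgeR adjusted p = 0.039). It was lost with promoters scaled separately. More distant regions rose 5691 bp before Arntl (0.56 ± 0.15, edgeR adjusted p = 0.0354) and 9471 bp before Cry2 (0.69 ± 0.19, edgeR adjusted p = 0.0354), and these too were lost in that fit. A region 9464 bp from the start of Bhlhe41, which encodes a repressor of clock targets, fell from 29.2, 29.1 and 32.1 CPM to 16, 15.4 and 16.7 CPM (-0.90 ± 0.22, edgeR adjusted p = 0.0214). With promoters scaled separately, none of the clock regions rose and 1 fell.

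Immediate early genes, which stimuli switch on within minutes, had 3 of 31 regions called and all 3 fell, 2 of them at Junb. That is 9.68% called, beside 3.05% of all 14760 regions within 10 kb of a start (258 higher and 192 lower). The Junb promoter had 44.7, 43.0 and 43.4 CPM at ZT5 and 30.9, 22.2 and 31.7 CPM at ZT17 (-0.60 ± 0.14, edgeR adjusted p = 0.0166), and a region 2109 bp after the start fell by 0.54 on the log2 scale (SE 0.12, edgeR adjusted p = 0.0169). The Egr2 promoter fell from 39.9, 49.6 and 45.5 CPM to 30.6, 34.8 and 33.4 CPM (-0.48 ± 0.14, edgeR adjusted p = 0.0468), and 11 of 18 alternative fits did not call it. Genes of the glucocorticoid response moved both ways, with 2 of 26 regions higher and 1 lower (11.5% called). Regions near Tsc22d3, the leucine zipper protein GILZ, and Dusp1, a phosphatase of MAP kinases, rose by 1.06 ± 0.26 (edgeR adjusted p = 0.0206) and 0.61 ± 0.17 (edgeR adjusted p = 0.0428). The Dusp1 call was lost in 8 of 18 alternative fits, among them the fit of the 6 libraries and the one with promoters scaled separately. The promoter of Mt2, a metallothionein, fell from 34.5, 36.0 and 33.8 CPM to 20.4, 18.8 and 24.6 CPM (-0.71 ± 0.17, edgeR adjusted p = 0.019). A region near the small heat shock gene Hspb1 fell from 38.4, 32.0 and 29.5 CPM to 19.3, 13.7 and 18.5 CPM (-0.92 ± 0.20, edgeR adjusted p = 0.00966). It was the 1 of 22 called among heat shock and cold-inducible genes (4.55%, near the 3.05% of all near regions). Without ZT5 replicate 2, none of the immediate early or clock regions was called.

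The regions with the smallest p that rose lay mostly in introns or between genes, and each is named by the nearest start site, which need not be its target. The region with the smallest p, in an intron 28911 bp before the start of the microRNA gene Mir6995 (chr19:47302425-47302575), had 46.7, 51.2 and 39.7 CPM at ZT5 and 99.1, 107 and 99.9 CPM at ZT17 (1.12 ± 0.11, edgeR adjusted p = 1.02e-05). The largest rise was 23870 bp after Efcab8 (chr2:153804674-153804824), from 12.2, 11.3 and 15.5 CPM to 38.9, 44.4 and 55.4 CPM, which is 1.85 ± 0.23 on the log2 scale (edgeR adjusted p = 0.000291). A region 116188 bp before Alcam, a cell adhesion molecule, rose by 1.5 ± 0.19 (edgeR adjusted p = 0.000291). Near genes with known roles in metabolism or signalling, an intron region of Ldha, lactate dehydrogenase A (chr7:46849416-46849566), went from 27.7, 20.7 and 35.4 CPM to 51.6, 58.7 and 55.0 CPM (1.03 ± 0.15, edgeR adjusted p = 0.00115). The Ldha promoter printed above rose from 34.5, 34.1 and 31.6 CPM to 47.7, 48.4 and 46.6 CPM (0.50 ± 0.12, edgeR adjusted p = 0.019). A region 24291 bp before Ptges, a prostaglandin E synthase (chr2:30927513-30927663), went from 18.5, 17.3 and 15.0 CPM to 33.9, 63.8 and 57.2 CPM (1.56 ± 0.23, edgeR adjusted p = 0.00142). The other 5, near Arap1, Adamtsl1, Mif4gd, 4930546K05Rik and Mir1901, rose by 0.88 to 1.09.

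The falls named here lay at promoters and at more distant sites. The region with the smallest p of these lay 14220 bp before Por, the reductase that supplies electrons to cytochrome P450 enzymes (chr5:135674850-135675000), and had 65.6, 59.3 and 69.7 CPM at ZT5 and 33.9, 25.1 and 27.7 CPM at ZT17 (-1.11 ± 0.14, edgeR adjusted p = 0.000291). A region 2630 bp before Gstt2, a glutathione transferase (chr10:75837436-75837586), fell from 71.0, 77.7 and 66.4 CPM to 39.7, 32.5 and 44.0 CPM (-0.89 ± 0.12, edgeR adjusted p = 0.000668). A region in the 3′ UTR annotation of Alox5, the leukotriene-forming lipoxygenase, fell from 39.9, 41.7 and 31.6 CPM to 10.5, 14.8 and 11.4 CPM (-1.68 ± 0.24, edgeR adjusted p = 0.000859). The promoters were those of Sntg2 (-0.87 ± 0.13, edgeR adjusted p = 0.00143) and Eif5a2 (-0.74 ± 0.12, edgeR adjusted p = 0.00153). For Sntg2, a syntrophin of the membrane skeleton, the levels were 67.1, 87.1 and 58.4 CPM and then 39.5, 46.2 and 34.8 CPM. Regions near Epas1 (the hypoxia factor HIF-2 alpha), Creld2, the kinase gene Src and Mir23a fell by 0.95 to 1.39 on the log2 scale. Each of these falls, and each of the 10 rises with the smallest p, was called in all 18 alternative fits. These regions were picked for their small p in the same libraries, and some of those fits repeated the main fit. Their calls in the alternatives are thus no separate support.

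Called regions rarely piled up at a gene. They carried the names of 988 genes, 125 of which had at least 2 called regions, and at 119 of these all called regions moved in 1 direction. Of all called regions, 69.9% were higher. The most were found at Gm15326 (5 of 10 regions on chromosome 13), Dhrs3 (4 of 16 on chromosome 4), which encodes a retinaldehyde reductase, and Zmiz1 (4 of 10 on chromosome 14), a coactivator gene, and all of these rose. These 3 genes were picked for their called regions, after the values were seen, so their shared direction is no separate result. The log2 differences ran from 0.05 to 1.46 over the 10 regions of Gm15326 and from 0.05 to 0.96 over the 10 of Zmiz1. Over the 16 of Dhrs3 they ran from -0.05 to 0.98.

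RNA bound to adipocyte ribosomes was measured in other libraries of the same depot, strain and times, with 3 libraries a time. Of 12703 genes tested, 1311 differed between ZT17 and ZT5 (10.3%), 904 higher (7.12%) and 407 lower (3.2%) by edgeR. Among 168 genes with a region within 10 kb called higher and none called lower, 32 rose in RNA (19.0%) and 4 fell. Among 147 genes with a region called lower and none higher, 5 rose and 4 fell. Over all 8684 genes with a region within 10 kb, 8.39% rose and 2.26% fell. In all, 45 genes were called in both, 32 of them higher in both, 4 lower in both, 5 with a lower region and higher RNA and 4 with a higher region and lower RNA.

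Markers of cell types moved in the same RNA libraries. Summed over 12 adipocyte markers, the level was 10157 to 14057 CPM at ZT5 and 34232 to 67222 CPM at ZT17. Such a sum follows the most abundant genes. Of the 12 markers 3 were called, all higher, with log2 differences of 2.49 at Fabp4, 1.39 at Lipe and 1.07 at Plin1. The others were not called and ran from -0.26 at Acvr1c to 1.18 at Cfd, with Adipoq at 0.29 and 2 below 0. All 10 macrophage markers had a log2 difference below 0, with sums of 130 to 224 CPM at ZT5 and 55.4 to 100 CPM at ZT17, and none was called. All 11 lymphocyte markers tested were below 0 as well (261 to 345 CPM and 59.5 to 129 CPM), and 2 were called lower. Of 10 fibroblast markers 9 were below 0 and 2 were called lower (401 to 480 CPM and 107 to 298 CPM), and of 8 smooth muscle markers 6 were below 0 and 3 were called lower (131 to 185 CPM and 47.8 to 110 CPM). Skeletal muscle markers were below 0 at 5 of 8 genes, with 2 called lower (152 to 382 CPM and 18 to 149 CPM), and endothelial markers at 7 of 9, with none called (152 to 183 CPM and 52.4 to 239 CPM). Of 4 Schwann cell markers 3 were below 0 and Sox10 was at 0 in all ZT17 libraries, and both mammary markers tested were below 0, with none called. The part of these shifts in the RNA differences was not tested.

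Several lipid genes with a called region rose in RNA as well, but not all. Cidea, Cd36 and Lpl had a region called higher while their RNA was not called (log2 differences of -0.09, 0.45 and 0.79). Other lipid genes, Gpam, Lpin1, Dgat1, Me1 and Acacb among them, rose in RNA with no called region within 10 kb. Fasn RNA went from 43.8, 64.2 and 76.3 CPM to 131, 729 and 139 CPM (2.44 ± 0.53, edgeR adjusted p = 0.00979), with ZT17 replicate 2 far above the other two. Without that library and ZT5 replicate 3, which had 53.0% and 66.0% of their counts in ribosomal RNA loci, the Fasn difference was 1.14 and was no longer called (edgeR adjusted p = 0.0966). Gpd1 RNA went from 139, 121 and 157 CPM to 270, 645 and 258 CPM (1.5 ± 0.39, edgeR adjusted p = 0.0194), and fell to 0.84 without the same 2 libraries (edgeR adjusted p = 0.18). Dgat2 rose by 1.38 ± 0.33 (edgeR adjusted p = 0.013), a call lost without these 2 libraries as well. Pcx RNA rose from 91.0, 74.2 and 106 CPM to 227, 272 and 254 CPM (1.47 ± 0.30, edgeR adjusted p = 0.00887), and was called without them too. Angptl8 RNA went from 0.279, 0 and 1.70 CPM to 7.45, 10.5 and 12.3 CPM (edgeR adjusted p = 0.0113). Plin2 rose by 2.48 ± 0.43 (edgeR adjusted p = 0.00374), Agpat2 by 2.39 ± 0.42 (edgeR adjusted p = 0.00453) and Ptges by 3.40 ± 0.56 (edgeR adjusted p = 0.003), and these 3 and G0s2 were called in all 12 alternative fits. G0s2 RNA went from 89.4, 66.2 and 114 CPM to 1173, 736 and 1184 CPM (3.52 ± 0.49, edgeR adjusted p = 0.00145) beside a promoter that was not called.

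Region and RNA went opposite ways at several genes. Por RNA rose from 43.6, 42.5 and 45.8 CPM to 205, 94.9 and 155 CPM (1.79 ± 0.49, edgeR adjusted p = 0.0245) while the region 14220 bp before it fell. Gstt2 RNA rose from 14.0, 16.3 and 31.1 CPM to 72.8, 46.4 and 84.9 CPM (1.76 ± 0.50, edgeR adjusted p = 0.0278) while 2 regions near its start fell. Mt2 RNA rose by 1.64 ± 0.52 (edgeR adjusted p = 0.0448) while its promoter fell. These RNA calls were lost in 5, 4 and 6 of 12 alternative fits. Regions and RNA came from different libraries, and the RNA fit called 33 genes when ZT17 replicate 3 was left out. Without the 2 libraries rich in ribosomal RNA it called 767 genes higher and 815 lower, with a median over all genes of -0.33 against -0.07.

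The called regions were then read in the libraries of the other times, which lent the fit their spread but no value to the contrast. From ZT9 to ZT21, which share no library with the comparison, 611 of the 794 higher regions were above 0 (77.0%, against 51.4% of all regions), with a median log2 difference of 0.31. Of the 342 lower regions, 112 were above 0 (32.7%). The sets were not matched by class, as 6.93% of the higher regions were promoters against 37.8% of all. The promoter share of tags was 49.3%, 48.7% and 49.1% at ZT9 and 48.0%, 47.5% and 48.4% at ZT21. Its part in these counts was not tested. From ZT1 to ZT13 the shares were closer to those of all regions, with 449 of the higher (56.5%) and 149 of the lower regions (43.6%) above 0, against 46.9% of all. The higher regions had a median log2 level, relative to the mean of 18 libraries, of -0.21, -0.05 and -0.19 at ZT9, of 0.09, 0.00 and 0.11 at ZT13 and of 0.17, 0.14 and 0.20 at ZT21. They were thus above their ZT9 level in all 3 ZT13 and all 3 ZT21 libraries. At the lipid genes the difference from ZT9 to ZT21 was 0.67 for the Angptl8 promoter, 0.54 for Pcx and 0.52 for the Fasn region in the 5′ UTR, but 0.03 for Gpd1. From ZT1 to ZT13 the same regions were at -0.18, 0.03, -0.03 and 0.73, so none of them rose clearly in both. Of other lipid regions, the difference from ZT9 to ZT21 was 0.39 for Dgat2 (4902 bp before the start), 0.07 for Fasn (6326 bp before) and -0.10 for Agpat2.

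**Figure D4:**
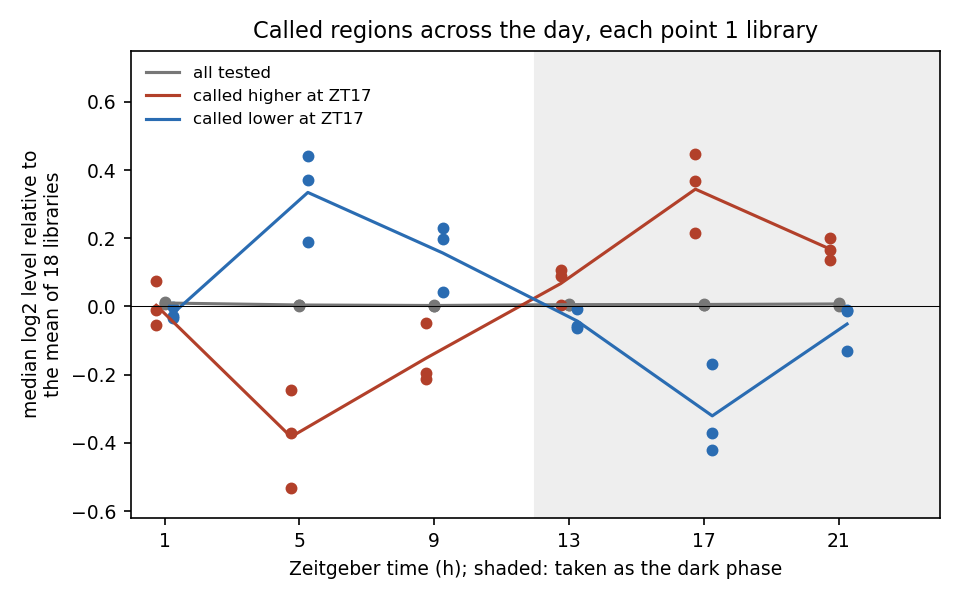
Median log2 level of the 794 regions called higher (red), the 342 called lower (blue) and all tested regions (grey), relative to the mean of 18 libraries, by Zeitgeber time, with 1 point per library and lines through the group means. Shading marks the time taken as dark. The values at ZT5 and ZT17 chose the regions and the other 4 times did not: the red points lie between -0.21 and -0.05 at ZT9 and between 0.14 and 0.20 at ZT21.

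Brown adipose tissue (BAT) of the same strain and times was used to ask which differences held in another depot. Of the 1136 called regions, 913 overlapped a BAT region by at least 75 bp. In BAT, 595 of the 671 shared higher regions were above 0 at ZT17 (88.7%, against 35.9% of all shared regions), with a median log2 difference of 0.28, and 203 of them were called higher in BAT and 1 lower. Of 242 shared lower regions, 13 were above 0 in BAT (5.37%) and 81 were called lower there, against 2050 of 21636 shared regions called in BAT in either direction (9.47%). The BAT libraries of ZT5 and ZT17 thus moved in the direction of the WAT regions at most of them. Here too the called regions and all shared regions were not matched by class.

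The difference between depots itself was called at 60 of 21636 shared regions (0.277%, edgeR quasi-likelihood test of the interaction). At 57 of them the ZT17 minus ZT5 difference was higher in WAT, 58 were also called in WAT and 5 were called in BAT on its own. At Gpd1, the region that rose in WAT had 79.7, 74.1 and 73.2 CPM at ZT5 and 66.5, 72.8 and 74.7 CPM at ZT17 in BAT, where it was at -0.07 (difference between depots 0.95 ± 0.16, edgeR adjusted p = 0.00351). At the Ldha intron region BAT had 48.5, 58.7 and 52.8 CPM and then 48.4, 55.2 and 55.6 CPM (difference 1.03 ± 0.16, edgeR adjusted p = 0.00183). At Thrsp BAT had 71.0, 65.6 and 67.9 CPM and then 61.5, 62 and 70.6 CPM (difference 0.66 ± 0.14, edgeR adjusted p = 0.0191). At all 3 of these genes the ZT5 and ZT17 libraries of BAT overlapped, while every WAT library of ZT17 was above every one of ZT5. Levels were scaled within each depot, so a level in WAT and one in BAT are not strictly on 1 scale. For the Angptl8 promoter, which also rose in BAT (0.50, edgeR adjusted p = 0.00156), and for the Fasn region in the 5′ UTR (0.24 in BAT) the difference between depots did not pass (edgeR adjusted p = 0.496 and 0.291). The count rested on single libraries too, with 5 regions without ZT5 replicate 2, 16 without ZT17 replicate 3, 23 without ZT5 replicate 1, 25 without ZT17 replicate 2, 91 without ZT17 replicate 1 and 127 without ZT5 replicate 3.

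**Figure D5:**
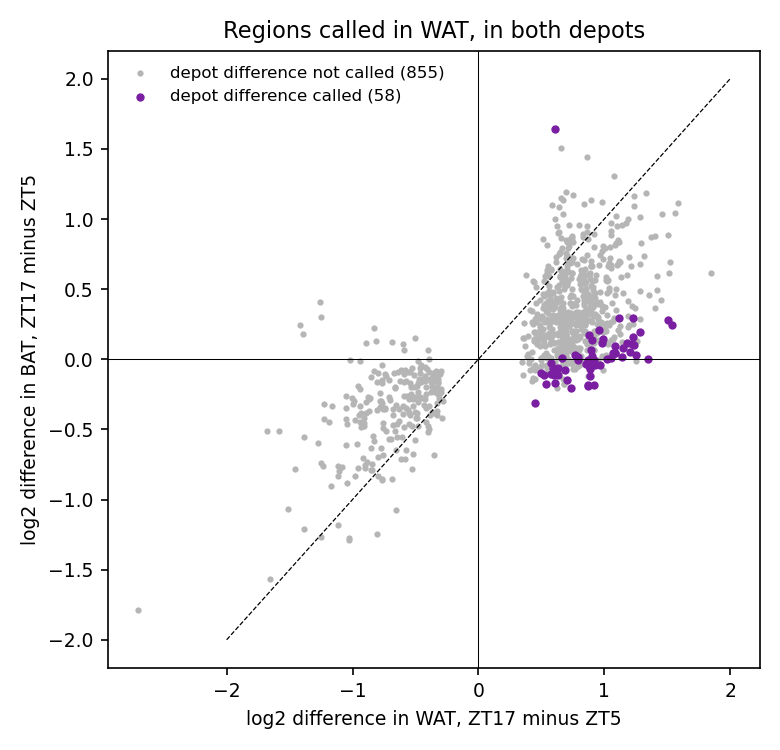
Log2 difference ZT17 minus ZT5 in WAT (horizontal) and BAT (vertical) for the 913 regions called in WAT and shared with BAT, with a dashed line where both are equal. Purple marks the 58 regions whose difference between depots was called, all of them at a WAT value above 0: 57 lie below the dashed line, and 1 near Zfp365 lies above it, at 1.64 in BAT and 0.61 in WAT.

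BMAL1 binding, taken from a pooled peak set of inguinal WAT of C57BL6J mice at ZT4, overlapped 23.2% of all regions tested. It overlapped 14.4% of the regions called higher and 29.2% of those called lower. Within promoters the shares were 37.1% of all, 25.5% of the higher and 41.5% of the lower, and outside promoters 14.8%, 13.5% and 22.8%. Of 331 regions under the 500 peaks with the highest score, 6 rose (1.81%) and 12 fell (3.63%). That is 5.44% called, near the 4.53% of all regions, of which 3.17% rose and 1.37% fell. BMAL1 peaks, by the authors' score, lay at named regions of both directions. Among those that fell they lay at Bhlhe41 (42.8), Junb (22.8), Eif5a2 (21.7), Gstt2 (20.2), Por (18.3), Mt2 (13.4), Acaa2 (8.90), Creld2 (7.36) and Epas1 (4.45). Among those that rose they lay at the Fasn region in the 5′ UTR (9.76), 4930546K05Rik (8.90), Plin2 (8.73), Agpat2 (8.05), Ptges (4.96) and the Angptl8 promoter (4.28). They also lay at the start sites of Dbp (127.2), Ciart (89.7), Per2 (86.8) and Nr1d1 (85.1), none of which was called.

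Promoters were described by GC content and short motifs, with no test. Of all regions, 6970 overlapped a RefSeq window from 250 bases before to 50 after a start site by at least 75 bp, 34 of them called higher and 84 called lower. The median GC content of the windows was 57% for the higher, 65.7% for the lower and 62.3% for all 6970. The GC box GGGCGG, on either strand, was found in 38.2% of the higher, 85.7% of the lower and 73.2% of all tested windows, and in 35.9% of all 32544 windows of this length. The nuclear receptor element AGGTCA was found in 9 of 34 higher windows (26.5%), 9.52% of the lower and 11% of all tested (16.2% of all windows). The E-box CACGTG was found in 7 of 34 higher windows (20.6%), 11.9% of the lower and 11.2% of all tested (7.17% of all windows). The sterol response element TCACNCCAC was found in 3 higher windows (8.82%), 2.38% of the lower and 1.05% of all tested (1.24% of all windows). The forkhead site TGTTTAC was found in 2.94%, 8.33% and 2.30% (3.66% of all windows), the cyclic AMP response element TGACGTCA in 5.88%, 0% and 3.69% (1.80%), the AP-1 site TGANTCA in 5.88%, 2.38% and 3.89% (7.79%), the D-box TTATGTAA in 2.94%, 0% and 0.330% (0.931%) and the C/EBP site TTGCGCAA in 0%, 0% and 0.373% (0.184%). With 34 higher windows, a single window moves a share by several percentage points. The call of promoters, and so the make-up of both groups, moved with the scaling as given above.

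At the threshold, the last regions called were near 1700031L13Rik, Fcer1g and Guca2b (edgeR adjusted p = 0.0499), with log2 differences of 0.81, -0.76 and -0.32. The next, near Sod1, Prelp and Cxcl1 (edgeR adjusted p = 0.0502 to 0.0503), were at 0.86, 0.59 and -0.65.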

How the data were processed

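For ATAC the authors deposited raw counts of tags in regions of 150 bp, annotated on mm10 with the nearest start site, and the submitters' processing notes name HOMER. No source used here gives the ATAC aligner. For RNA the authors deposited expected counts per gene, with STAR 2.7.5 and RSEM 1.3.0 in the submitters' processing notes, and these were rounded to whole numbers. The BMAL1 peaks carry a score that the authors deposited, called on 2 pooled libraries, and 10368 peaks of 212 bp were read.

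Counts of all 18 libraries of an assay were fitted with edgeR 4.0.16 (time as a factor, TMM scaling, filterByExpr, quasi-likelihood F test of ZT17 minus ZT5, Benjamini-Hochberg adjustment, threshold 0.05). The filter removed no ATAC region. Levels are TMM-scaled CPM, and each SE was taken as the log2 difference over the root of F. The depot fit took 36 libraries, with TMM within each depot. Regions were matched by an overlap of at least 75 bp (bedtools 2.31.1). Alternatives used limma 3.58.1 and DESeq2 1.42.0 in R 4.3.3. The deposited regions all have a mean of at least 15.3 CPM over the 18 libraries, so weaker sites were not tested. On simulated ATAC counts 89.5% of 200 regions changed by 1 on the log2 scale were recovered, and 17.5% of those changed by 0.5. In these runs 17 and 1 unchanged regions were called as well. On simulated RNA counts 35.5% of 200 genes changed by 2 were recovered, and 0% of 200 changed by 1. An RNA difference that was not called may thus still be a change.

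Named regions were the 10 with the smallest p in each direction whose libraries did not overlap, at most 1 per gene, up to 3 called regions within 10 kb per list, and for clock genes, Thrsp, G0s2, Fasn, Adipoq, Lep and Angptl4 the strongest region within 1 kb of the start. A result chosen by this rule is not reported here. The third Fasn region, the called regions of Thrsp, Slc25a1, Cd36 and Lpl, the promoters of Dgat2, Gstt2 and Ldha and those in the closing section were added after their values were seen. So were the 3 genes with the most called regions. The members and lists were chosen with earlier results of these data known. Rhythm tables of the authors were not used.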

Additional observations from a re-analysis of the deposited data

Results flagged for a closer look

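The difference between ZT17 and ZT5 differed between WAT and BAT at 60 shared regions by the edgeR test of the interaction, and the 8 regions below are among them. The WAT minus BAT difference on the log2 scale was 0.81 near Mir6995, 1.02 near Adamtsl1, 1.03 at Ldha, 0.95 at Gpd1, 0.66 at Thrsp, 0.70 near Mir1901, 0.66 at Esrra and 0.68 at the Klf10 promoter. Near Mir6995 both depots rose, with 73.0, 67.6 and 71.8 CPM at ZT5 and 82.0, 91.1 and 87.1 CPM at ZT17 in BAT. Near Adamtsl1 BAT had 80.8, 77.4 and 80.6 CPM at ZT5 and 78.2, 82.4 and 85.2 CPM at ZT17. At the promoter of Klf10, a transcription factor gene, WAT went from 65.6, 67.5 and 70.2 CPM to 86.7, 117 and 104 CPM, and BAT from 66.3, 76.1 and 64.2 CPM to 59.5, 67.0 and 63.6 CPM.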

How the results depend on the processing

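The count of 1136 regions ran from 98 (without ZT5 replicate 2) to 1632 (without ZT5 replicate 3) when 1 library was left out, and from 857 to 1375 over the other alternatives, of which the scaling of promoters apart, the removal of repeat regions and the fit without ZT21 were chosen after seeing the data. The count of RNA genes ran from 33 to 1933 with 1 library left out, and was 1918 with DESeq2 and 1162 without ribosomal and mitochondrial genes, which moved the median of all genes from -0.07 to -0.19. The count of regions that differ between depots ran from 5 to 127 with 1 library left out, and was 48 with only the 12 libraries. The main fits did not pair libraries by replicate number. Same-numbered deviations correlated at 0.06, -0.17 and 0.18 in ATAC and at -0.02, 0.09 and 0.06 in RNA. Those of unlike number ran from -0.31 to 0.29 in ATAC and from -0.10 to 0.06 in RNA. With 3 libraries a time the deviations from their mean are tied to each other, so these values cannot exclude pairing. With the replicate block 1319 regions, 1545 RNA genes and 68 regions between depots were called. Of 61 called regions scored one by one, 25 were called in all 18 alternatives and 44 in every one that left out no library, none changed direction, and none of 21 uncalled ones was called in any. Where libraries do not overlap, leaving 1 out can hardly turn a direction. The alternatives with no filter and with a mean of at least 20 tags removed no region and so repeated the main fit, with the same 1136 regions called. Why the count of regions ran from 98 to 1632 when 1 library was left out was not tested, and the libraries left out also differed in depth. A log2 difference of 0.5 is near the limit of what 3 libraries at this depth show.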

Other observations

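A few further genes, picked one by one after their values were seen and not from a list, had called regions. Ppp1r3b and Ppp1r3c encode subunits that bring protein phosphatase 1 to glycogen. The Ppp1r3c promoter went from 52.5, 49.1 and 47.7 CPM at ZT5 to 59.1, 67.8 and 84.5 CPM at ZT17 (log2 difference 0.49 ± 0.12, edgeR adjusted p = 0.0211), and its RNA rose by 2.24 ± 0.40 on the log2 scale (edgeR adjusted p = 0.00438). The Ppp1r3b promoter rose by 0.59 ± 0.16 (edgeR adjusted p = 0.039) and its RNA by 2.18 ± 0.44 (edgeR adjusted p = 0.00796). The calls of the Ppp1r3b and Ppp1r3c promoters were lost in 7 and 4 of 18 alternative fits, among them the fit of the 6 libraries. Taldo1 and Tkt encode transaldolase and transketolase of the pentose phosphate pathway, and the regions named for them rose by 0.68 ± 0.18 and 0.46 ± 0.13 (edgeR adjusted p = 0.0306 and 0.0442), with RNA higher by 2.34 ± 0.50 and 2.50 ± 0.52. A region in an intron near Hk2, the gene of hexokinase 2, went from 10.7, 7.87 and 13.4 CPM to 23.7, 29.6 and 35.2 CPM (1.51 ± 0.25, edgeR adjusted p = 0.00198), and the promoter of Pkm, pyruvate kinase, from 36.5, 38.8 and 46.1 CPM to 48.9, 61.5 and 62.5 CPM (0.50 ± 0.12, edgeR adjusted p = 0.0224). RNA was not called at either gene, with log2 differences of 1.31 ± 0.45 for Hk2 (edgeR adjusted p = 0.0635) and -0.37 ± 0.29 for Pkm (edgeR adjusted p = 0.433).

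Region and RNA were both lower at Zfp36, which encodes a protein that destabilises messenger RNA, and at Pim3, a kinase gene, again chosen after their values were seen. The Zfp36 region went from 68.5, 70.1 and 64.8 CPM to 39.7, 22.8 and 29.5 CPM (edgeR adjusted p = 0.00212), and RNA was at -1.36 ± 0.37 (edgeR adjusted p = 0.022). The Pim3 region went from 112, 134 and 106 CPM to 80.6, 82.6 and 81.4 CPM (edgeR adjusted p = 0.00369), and RNA was at -1.27 ± 0.38 (edgeR adjusted p = 0.0349).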
